A study of Mus musculus with 10 samples.

Results

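The genes described here were the plasminogen activators, their receptor, inhibitors and associated genes Plat, Plau, Plaur, Serpine2, Serpinf1, Serpina3n and F3, found by their symbols among the probes of a mouse whole-genome array. All 7 genes had 1 probe each, and all 7 passed the filter on low intensity that left 16113 of 19942 genes with a symbol. Total RNA came from the left ventricle of male C57BL/6J mice, 8 weeks old and weighing 20 to 25 g, after transverse aortic banding (TAB) or a sham operation. A band around the aortic arch raises the pressure against which the left ventricle pumps, and the heart enlarges. Hearts of each operation were collected 3, 5, 7, 14 and 28 days later with 1 sample per day, so there were 10 samples, 5 of each operation. How many mice went into a sample, and whether samples share mice, was not given in the sources used here. One label of the TAB sample of day 14 names another day, and the day of its title was used.

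Plasminogen is a circulating zymogen that tissue-type plasminogen activator (Plat) and urokinase (Plau) cleave to plasmin, a protease of fibrin and of extracellular matrix. Urokinase acts at the cell surface when bound to its receptor (Plaur), and serpins, which trap proteases in an irreversible complex, hold the activators in check. Serpine2 (protease nexin 1) inhibits both activators and thrombin. Serpinf1 (pigment epithelium-derived factor) is a serpin that inhibits no protease and is known as an anti-angiogenic secreted protein. Serpina3n, a mouse relative of alpha-1-antichymotrypsin, is a secreted acute phase serpin that inhibits granzyme B and other serine proteases. F3 (tissue factor) is the membrane receptor that starts the coagulation cascade, whose product fibrin is dissolved by plasmin. Thus Plat, Plau, Plaur and Serpine2 act on plasminogen activation itself, while the other genes are a serpin without inhibitory activity, a serpin of other proteases and a coagulation starter.

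The sequences just before the transcription start are shown for the 5 of the 7 genes that the RefSeq promoter table used here holds, which leaves out Plat and Plau, so that they can be read beside the values of genes that differed in direction after TAB. They were taken from RefSeq on the build GRCm38.p6, 150 bases ending at the base before the start, and are printed 5′ to 3′ on the strand of the gene. Capitals mark matches to the AP-1 letters TGAGTCA or TGACTCA and to the GC box letters GGGCGG or CCGCCC, so that both strands of each motif were searched, and the letters of TTCNNNGAA, which reads the same on both strands, were searched as a STAT motif. The 3 motifs do not overlap one another, but neighbouring GC boxes may share a base. They were chosen after the sequences had been seen.
Plaur, chr7:24462333-24462482, plus strand: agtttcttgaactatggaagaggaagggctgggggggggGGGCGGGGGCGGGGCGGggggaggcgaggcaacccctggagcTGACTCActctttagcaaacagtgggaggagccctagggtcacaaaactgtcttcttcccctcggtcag
Serpine2, chr1:79858666-79858815, minus strand: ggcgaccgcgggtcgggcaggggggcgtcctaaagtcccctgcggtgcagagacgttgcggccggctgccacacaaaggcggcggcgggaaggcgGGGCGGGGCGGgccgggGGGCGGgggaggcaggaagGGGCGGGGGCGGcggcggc
Serpinf1, chr11:75422624-75422773, minus strand: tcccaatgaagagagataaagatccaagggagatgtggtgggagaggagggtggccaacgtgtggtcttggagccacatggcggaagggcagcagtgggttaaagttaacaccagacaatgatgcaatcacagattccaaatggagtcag
Serpina3n, chr12:104406558-104406707, plus strand: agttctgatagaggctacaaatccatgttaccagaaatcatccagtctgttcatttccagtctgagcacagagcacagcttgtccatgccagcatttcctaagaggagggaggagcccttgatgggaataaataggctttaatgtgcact
F3, chr3:121723387-121723536, plus strand: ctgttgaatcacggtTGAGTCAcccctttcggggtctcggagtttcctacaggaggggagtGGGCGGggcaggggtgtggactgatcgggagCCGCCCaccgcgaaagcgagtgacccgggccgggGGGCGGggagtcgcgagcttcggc

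The AP-1 letters began 69 bases before the start of Plaur and 135 bases before that of F3. They occurred in 2.84% of the 32851 upstream windows of this length in the RefSeq table. GC boxes stood in the windows of Plaur, Serpine2 and F3, as they did in 28.6% of all windows, with 5 matches before Serpine2 alone. The STAT letters were in none of the 5 windows and in 4.09% of all windows. The windows of Serpinf1 and Serpina3n held none of the 3 motifs and were the poorest in G and C, at 50.7% and 45.3%, against 81.3% for Serpine2 and a median of 54% over all windows. These are matches of letters and not measured binding.

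Values are normalized intensities, that is, array brightness after scaling and quantile normalization, and they may be compared between samples for 1 gene but not between genes. A log2 ratio is the log2 intensity of the TAB sample minus that of the sham sample of the same day. A gene was called when its TAB effect averaged over the 5 days had a Benjamini-Hochberg adjusted p under 0.05 over all 16113 genes in limma with day as a block. By this test 4 of the 7 genes rose after TAB (Serpina3n, Serpinf1, Serpine2 and Plat), F3 fell, and Plau and Plaur were not called. Over all genes tested, 9.19% were called higher and 7.87% lower. Every TAB sample was above every sham sample for 3 of the 7 genes, Serpina3n, Serpinf1 and Serpine2, against 9.99% of all genes. Every TAB sample was below every sham sample for 1 gene, F3, against 7.76% of all genes. Without day 3, day 5 or day 7 the members called fell from 5 to 1, Serpinf1, while the genes called fell from 2749 to 30, 98 and 22, so the other calls did not hold without any 1 of the 3 early days. The days are the only replicates. The p-values and the SEs come from limma, which moderates each gene's spread of the TAB effect between days towards that of all genes. In bulk tissue, fewer or more cells of a type and less or more RNA per cell cannot be told apart.

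**Figure D1:**
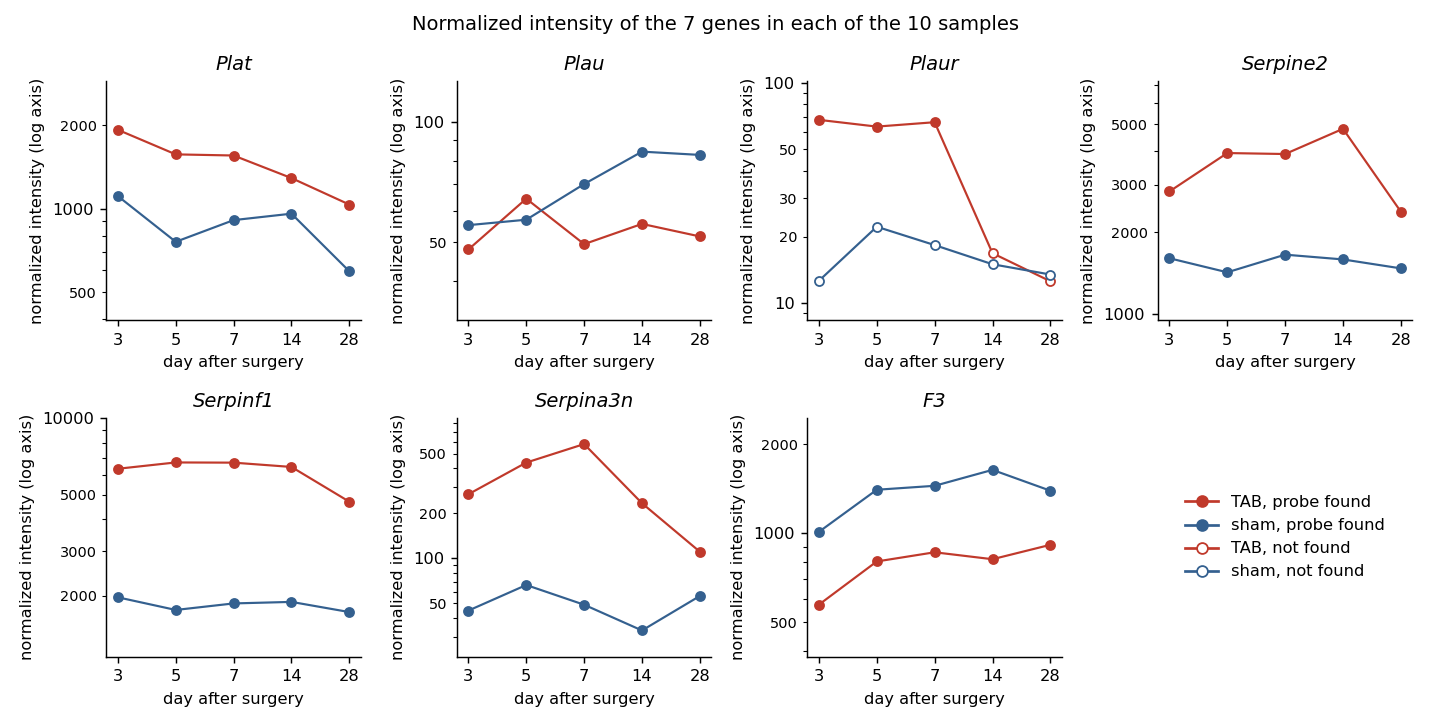
Normalized intensity (log axis) of each gene by the day after surgery (3, 5, 7, 14 and 28), with TAB samples in red and sham samples in blue, 1 sample per point; open points are arrays on which the probe was not found. TAB lies above sham on all 5 days for Plat, Serpine2, Serpinf1 and Serpina3n and below it for F3, and Plaur is found only in the TAB samples of days 3, 5 and 7.

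Plat, the gene of tissue-type plasminogen activator, was higher after TAB on all 5 days. Its normalized intensity was 1927, 1572, 1557, 1290 and 1035 in the TAB samples of days 3, 5, 7, 14 and 28, and 1111, 760, 910, 960 and 595 in the sham samples of the same days. The TAB values were highest on day 3 and lowest on day 28, and the operations overlapped in that the TAB sample of day 28 lay below the sham sample of day 3. The mean TAB level was 1.70-fold the mean sham level (log2 difference 0.77 ± 0.12 SE, n = 5 days, adjusted p = 0.0207). The log2 ratio was between 0.43 and 1.05, and of the 5 ratios only that of day 5 exceeded the largest difference between 2 sham samples, 0.90.

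Plau, the gene of urokinase, did not pass the test. Normalized intensity was 48.0, 64.3, 49.5, 55.6 and 51.7 in the TAB samples in order of day and 55.2, 56.9, 69.9, 84.2 and 82.6 in the sham samples. The sham samples of days 14 and 28 were the highest, the TAB sample of day 5 was above its sham sample, and the operations overlapped. The log2 difference was -0.36 ± 0.16 SE (n = 5 days, adjusted p = 0.155), with 4 of 5 days lower. The spot was found on all 10 arrays, but the detection p-value deposited with it was between 0.129 and 1, so the gene lay close to what these arrays can measure.

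Plaur, the urokinase receptor, was found after TAB on the early days alone. It read 67.9, 63.3 and 66.3 in normalized intensity in the TAB samples of days 3, 5 and 7, then 16.9 and 12.6 on days 14 and 28, while the sham samples read 12.6, 22.2, 18.4, 15.0 and 13.5. The probe was found on the 3 early TAB arrays and on no other array, and the detection p-values were between 0.805 and 1 on all arrays. The TAB sample of day 14 lay within the range of the sham samples and that of day 28 just below it, so the operations overlapped. Over days 3 to 7 the ratio of the TAB mean to the sham mean was 3.81 (means 65.8 and 17.3). This ratio is uncertain, since the probe was not well above background on the sham arrays and the TAB detection p-values were high too. Averaged over all 5 days the fit missed the threshold (adjusted p = 0.0936 in limma). No fold is given for days 14 and 28, or over all days, since the probe was found in neither operation on those 2 days.

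Serpine2, the serpin that inhibits both activators, rose on every day. Its normalized intensity was 2832, 3923, 3891, 4819 and 2384 in the TAB samples in order of day, and 1607, 1426, 1656, 1591 and 1474 in the sham samples. The operations did not overlap, the TAB samples of days 3 and 28 were the closest to sham and that of day 14 was the farthest. The sham samples of different days differed by at most 0.22 on the log2 scale, whereas the log2 ratios were 0.82, 1.46, 1.23, 1.60 and 0.69. The mean was 2.24-fold higher (log2 difference 1.16 ± 0.17 SE, n = 5 days, adjusted p = 0.0179).

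Serpinf1 had the most even TAB effect of the genes that rose. Normalized intensity was 6337, 6710, 6698, 6442 and 4700 in the TAB samples in order of day, and 1975, 1761, 1869, 1895 and 1728 in the sham samples. The 2 ranges were far apart, the sham samples differed by at most 0.19 on the log2 scale, and the TAB sample of day 28 stood below the other TAB samples. The mean was 3.32-fold higher (log2 difference 1.73 ± 0.11 SE, n = 5 days, adjusted p = 0.00430). Its log2 difference ranked 273 from the highest of the 16113 genes. It was the one member still called with each day left out in turn, with adjusted p between 0.0105 and 0.0422 in limma.

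Serpina3n had the highest mean fold of the 6 genes found in both operations. Its normalized intensity was 269, 438, 582, 234 and 111 in the TAB samples in order of day, and 44.8, 66.4, 49.0, 33.0 and 56.1 in the sham samples. The TAB values peaked on day 7 and were lowest on day 28, when they were still above every sham sample. The mean was 5.80-fold higher (log2 difference 2.54 ± 0.35 SE, n = 5 days, adjusted p = 0.0167), which ranked 82 from the highest of all genes. The sham values and the TAB values of days 3, 14 and 28 lay close to background, with deposited detection p-values between 0.419 and 0.973 on the sham arrays and of 0.335, 0.192 and 0.641 in those TAB samples, so the fold is uncertain, and with 50 added before log2 the log2 difference was 1.77. The log2 ratio was 3.57 on day 7 and 0.98 on day 28, the latter within the largest difference between 2 sham samples, 1.01. Other genes of the Serpina3 cluster are close in sequence and the probe sequences were not used here, so signal from a relative cannot be separated. Among its relatives that passed the filter, Serpina3g (log2 difference 1.60, adjusted p = 0.146 in limma), Serpina3b, Serpina3j, Serpina3k and the probe shared by Serpina3h and Serpina3i were not called.

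F3, the gene of tissue factor, was the one member that fell. In normalized intensity it read 574, 803, 862, 817 and 914 in the TAB samples in order of day, and 1010, 1402, 1446, 1636 and 1392 in the sham samples. Every TAB sample was below every sham sample, and both operations had their lowest value on day 3. The sham mean was 1.74-fold the TAB mean (log2 difference -0.80 ± 0.11 SE, n = 5 days, adjusted p = 0.0154). The log2 ratio was farthest from 0 on day 14 and nearest to it on day 28 (-0.61), and 4 of 5 exceeded the largest difference between 2 sham samples, 0.70.

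**Figure D2:**
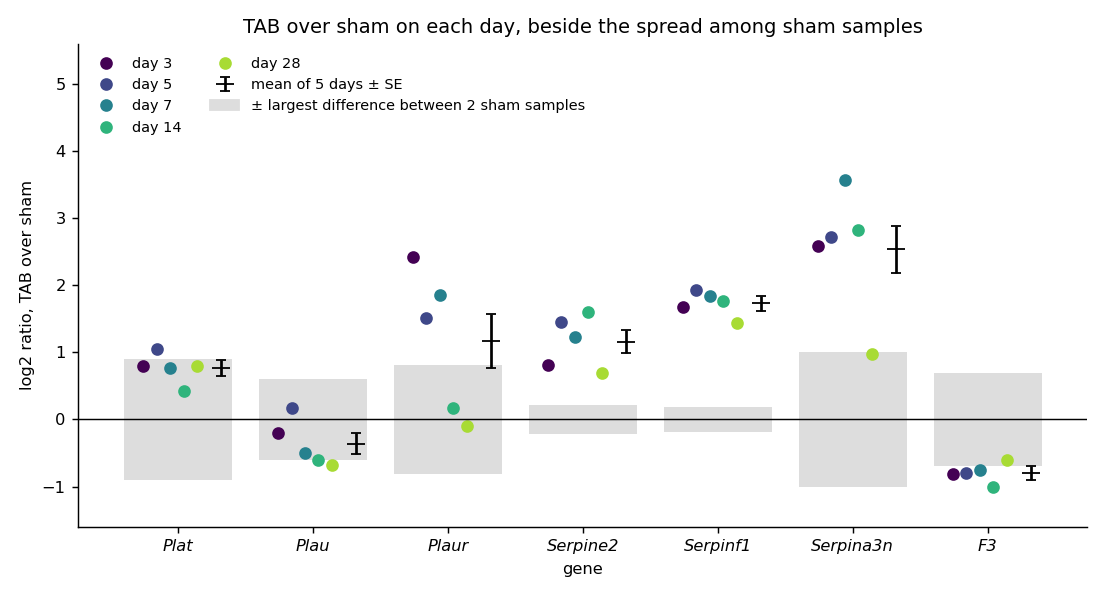
Log2 ratio of TAB over sham for each gene on each day (points), the mean over 5 days with its moderated SE from limma (bar), and the largest difference between 2 sham samples drawn on both sides of 0 (grey). The ratios of Serpine2 and Serpinf1 lie outside the grey band on all 5 days, those of Plaur on days 3, 5 and 7 only, and those of Plat on day 5 only. The Plaur probe was found on no sham array, so its points and bar rest partly on values not well above background and are no exact folds.

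With 1 sample per operation and day no test was possible on a day, and the study's rule was used in its place, which takes as differentially expressed (DE) the genes whose log2 ratio lies more than 2 standard deviations of all ratios of that day away from 0. The 7 genes gave 11 DE calls in 35 gene-days, all higher in TAB. With probes below 1 kept and set to 1 there were 5 calls, while the calls over all genes went from 4500 to 6427. When an absolute log2 ratio of 1 was the threshold there were 17, and 13173 over all genes. Serpina3n was DE on days 3, 5, 7 and 14, Serpinf1 on days 5, 7, 14 and 28, Plaur on days 3 and 7, and Serpine2 on day 14. Plat, Plau and F3 were DE on no day, although Plat and F3 were called over all days. The number of members DE and higher was 2, 2, 3, 3 and 1 on days 3, 5, 7, 14 and 28, against 3.1%, 4.09%, 4.08%, 3.39% and 3.41% of all genes. When sham samples were set against each other in the same way, in 10 pairs, no member exceeded the threshold, which was also so for 79.7% of all genes. The median log2 ratio of the 7 genes was 0.82, 1.46, 1.23, 0.43 and 0.69 on these days, and that of all genes stayed between -0.06 and 0.00.

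The difference between the early days (3, 5 and 7) and the late days (14 and 28) was tested for every gene in limma. No gene had an adjusted p under 0.05 (0%), and 11% of all genes had an unadjusted p under 0.05. Plaur was the one member of 7 below that unadjusted threshold, with unadjusted p = 0.00217 and adjusted p = 0.328. Its probe was found on no sham array and on neither late TAB array, so this p rests partly on values not well above background, and no size of the difference is given. For Serpina3n the means were 2.96 and 1.91 (difference 1.05 ± 0.64 SE, unadjusted p = 0.159), and the difference ran from 0.13 without day 28 to 1.98 without day 14. For Serpine2 and F3 the 2 stages differed by 0.02 on the log2 scale, with SEs of 0.37 and 0.21. For Plat, Plau and Serpinf1 the early ratio was larger than the late ratio by 0.26, 0.46 and 0.21, with SEs of 0.23, 0.26 and 0.21.

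Other genes of plasminogen activation were taken from a list of 14, of which 9 passed the filter. After TAB 4 of these 9 rose and 1 fell, that is 44.4% and 11.1% against 9.19% and 7.87% of all genes, with a median log2 difference of 0.83 over the 7 found on all arrays, against -0.03 for all genes. Anxa2, which with S100a10 forms a cell-surface complex that binds plasminogen and Plat, rose by a log2 difference of 1.63, and S100a10 by 0.92. Mrc2, a collagen receptor known to associate with Plaur, rose by 1.55, and Lrp1, the endocytic receptor that clears complexes of activators and serpins, by 0.83. Serpinf2, the alpha-2-antiplasmin gene and the main inhibitor of plasmin, fell by 0.69 with every TAB sample below every sham sample (adjusted p = 0.0249 in limma). Vtn, Serpini1, Serpinb2 and Serpina5 were not called. The gene of plasminogen itself, Plg, did not pass the filter on low intensity, nor did Cpb2, Klkb1 and F12, while Plgrkt had no probe under that symbol.

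Of 25 coagulation genes 20 passed the filter, and 6 of them rose and 1 fell, that is 30% and 5% against 9.19% and 7.87% of all genes (median log2 difference -0.01 over the 9 found on all arrays). The thrombin and protease-activated receptors F2rl3, F2rl1 and F2r were among those that rose, F2r by 1.07 with no overlap of the operations. The F2rl3 probe was found on 4 TAB arrays and on no sham array, so no fold is given for it. The related F2rl2 was found on no array and was not called. Tfpi2, an inhibitor of plasmin and other matrix-directed proteases, rose by 1.51 on the log2 scale. Tfpi, the direct inhibitor of the complex that F3 starts, fell by 0.89 with no overlap. Vwf, Thbd, F10 and F8 were found on all arrays and were not called.

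**Figure D3:**
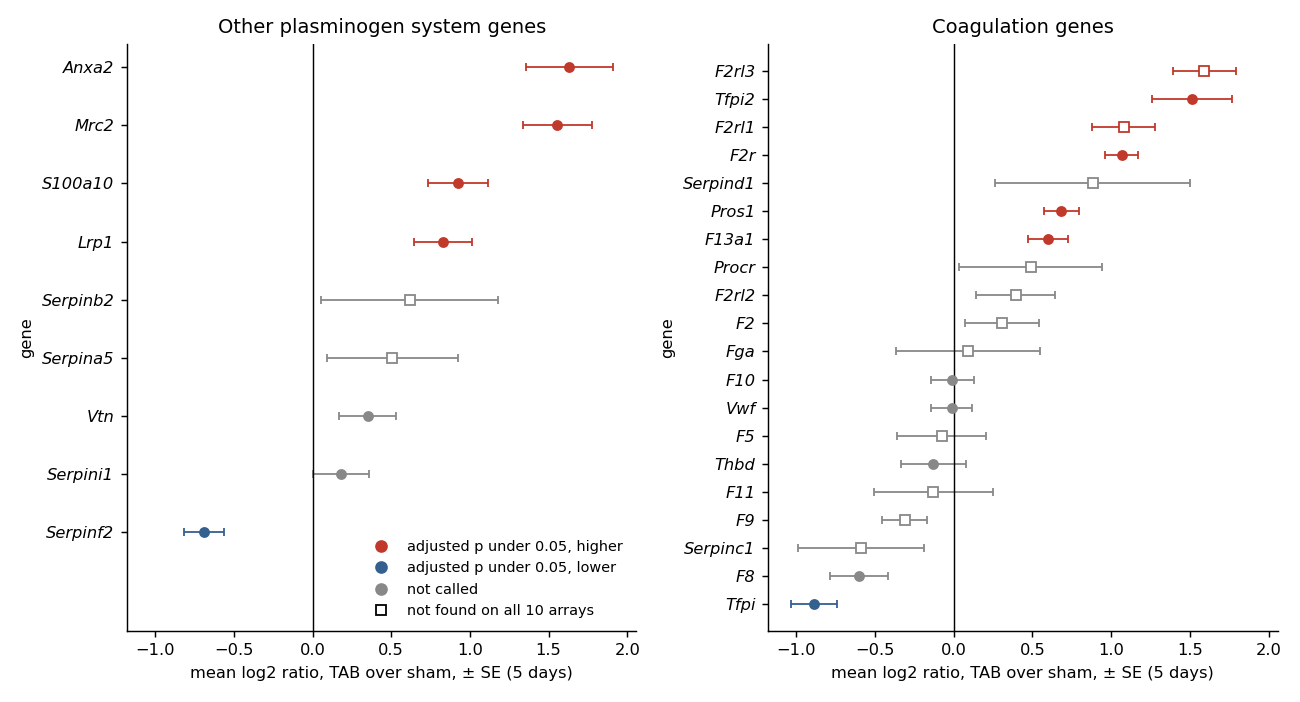
Mean log2 ratio of TAB over sham over 5 days, with its moderated SE from limma, for 9 plasminogen system genes (left) and 20 coagulation genes (right) that passed the filter. Red and blue are genes called higher and lower in limma, grey those not called, and open squares those not found on all 10 arrays. Anxa2 and F2rl3 lie farthest to the right in their panels, and Serpinf2 and Tfpi are the genes called lower. The F2rl3 probe was found on no sham array, so its point is no exact fold.

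Of 44 other symbols that begin with Serpin, 32 passed the filter, and 2 rose and 2 fell (6.25% each, near the 9.19% and 7.87% of all genes), with a median log2 difference of 0.18 over the 13 found on all arrays. Some of these genes, Serpinf2 among them, are also in the lists above. Those that rose were Serpinb1c, whose probe was found on 5 TAB arrays but only 2 sham arrays (log2 difference 3.04, uncertain for that reason), and Serpinb6a (0.60), intracellular serpins of another clade, and those that fell were Serpinf2 and Serpina6 (-0.61), the gene of corticosteroid-binding globulin, whose call was lost with median scaling only, with normalization within each operation and without any 1 of the 5 days. Of 17 acute phase genes 11 passed the filter and 4 rose (36.4%, against 9.19% of all genes). Osmr rose by 1.00 and Stat3 by 0.52 on the log2 scale. Il6 and Saa3, also called higher, were found on 3 and 4 TAB arrays and both on no sham array, so no fold is given for them. Lcn2, Hp and Socs3 were not called. The median log2 difference was 1.00 over the 5 acute phase genes found on all arrays. Over all lists, markers included, 30 genes were called. Without day 3, day 5 or day 7 the number still called fell to 2, 3 and 1, and without day 14 to 17, with all 30 in the same direction each time. Over all genes the calls fell likewise, from 2749 to 30, 98 and 22, and to 947 without day 14.

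The genes most alike to each member were taken by Pearson correlation of log2 intensity over the 10 samples, which share the split into TAB and sham, and the values are descriptive. Serpinf1 was closest to Postn (r = 0.996), Pdgfrl (0.994) and Mfap5 (0.994), of which Postn encodes the matrix protein periostin. Serpine2 was closest to Nelf (0.988), Phlda3 (0.981) and Acvrl1 (0.980), and Serpina3n to Snx7 (0.988), BC017643 (0.984) and Ncf1 (0.981). Plat was closest to Fam40a (0.979), Foxp1 (0.976) and Mmp14 (0.976), the last a membrane-bound matrix metalloproteinase. Plaur was closest to Ddx21 (0.975), Gmppa (0.970) and Plk3 (0.969), values that rest on 3 early TAB samples against 7 arrays on which its probe was not found. F3 was closest to AA415398 (0.974), 5530401A14Rik (0.960) and Flcn (0.960). For Plau the highest values were lower, with Cryz at 0.922. Among the members, Serpine2 and Serpinf1 had the highest correlation (r = 0.950), and Serpinf1 and F3 the lowest (r = -0.880).

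Leukocyte and macrophage markers moved with the operation, as did some markers of other cells. Over all genes tested, 9.19% were called higher and 7.87% lower. All 7 leukocyte and macrophage markers that passed the filter, of 9, rose, with a median log2 ratio of 1.23, 2.31, 1.45, 0.87 and 0.72 on days 3, 5, 7, 14 and 28 and a summed normalized intensity of 2679 to 7089 in TAB against 1634 to 2057 in sham. Of 4 fibroblast markers that passed, Postn and Col3a1 rose, while Dcn and Tcf21 were not called. The sum over all 4, in which brighter probes weigh more as in the other sums, was 25492 to 40195 in TAB against 16981 to 20011 in sham. Of 4 neutrophil markers S100a8 was called, though found on no array, and of 4 smooth muscle markers Tagln. The sums were 114 to 347 against 62.6 to 179 for neutrophil markers and 3884 to 5372 against 4401 to 5303 for smooth muscle markers. None of 6 endothelial, 7 cardiomyocyte, 3 atrial and 4 mesothelial markers was called, and the cardiomyocyte markers were found on all 10 arrays, as the tissue label has it. Myl2, one of these, was at or near saturation and could hardly have read higher. The atrial marker Myl7 was nevertheless below every sham sample in every TAB sample, as were 7.76% of all genes. The summed atrial markers ran from 2556 to 4760 in TAB and from 4390 to 9973 in sham. The part of these cells in the TAB effect on the 7 genes was not tested. Array medians before scaling were between 34 and 57, and 40.2% to 47.3% of probes were not found on an array, the lowest median and the highest share both in the TAB sample of day 3.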

How the data were processed

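mRNA was measured on 10 one-colour arrays (Mouse Whole Genome OneArray v2, Cy5), 1 for each operation and day. The authors deposited raw intensity per probe, read with GenePix from an Agilent scan, without scaling between arrays. Background had been subtracted, by a method not given in the sources used here. They also deposited a detection p-value and a flag for each probe, neither of them explained. The deposited p-value entered no call. A negative flag was read as a spot that was not found, and such a probe as not well above background on that array. Gene names are those of the 26423 probes as deposited, of which 3633 had none.

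Arrays were first brought to the same median. Probes that then read below 1 on any array were dropped. Quantile normalization over the 10 samples (target: the median at each rank) and log2 followed. Where a gene had several probes, the one whose absolute log2 ratios summed highest stood for it. The TAB effect and its difference between early and late days were tested with limma (lmFit, eBayes, two-sided) with the day as block, and p-values were adjusted after Benjamini-Hochberg (threshold 0.05). Ratios of 1 TAB to 1 sham array have no test, so DE calls follow the study's 2 SD rule. The days pair the samples by the labels; across genes, the deviation of the TAB sample from its group mean correlated with that of the same day's sham sample at r = 0.113, -0.0165, 0.00650, 0.00292 and 0.0140 on days 3 to 28. A fold against a group in which no array found the probe is given as a bound, computed from means with, per array, the lowest intensity found on it or the probe's own where higher. Precision is limited by the number of arrays.

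Named were the members and, from the lists of plasminogen, coagulation, acute phase and serpin genes, the called genes with the largest differences. Of the marker lists only some genes were named. A few other genes of the lists, such as those not called, were named after their values were seen. Likeness was taken over genes found on at least 5 arrays, 3 genes a member. The members and lists were chosen with earlier results of these data known. Alternatives were median scaling without quantile normalization, quantile normalization of each operation by itself, 50 added before log2, probes below 1 kept and set to 1, the lowest tertile left out, the brightest or the mean probe, no block, trend and robust on, an absolute log2 ratio of 1 or the mean sham level for DE calls, and each day left out; only probes found on all arrays was added after seeing the data. The procedure was tested on simulated data. Tools were R 4.3.3 with limma 3.58.1 and Python 3.11.15 with numpy 2.4.6, pandas 2.3.3 and matplotlib 3.10.9. Probe sequences and miRNA arrays were not used here, and coordinates only for the upstream windows. A gene of the lists is not reported here.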

Additional observations from a re-analysis of the deposited data

Results flagged for a closer look

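Among 14 groups of 5 samples examined (the 7 genes in each operation), 2 held a sample far from the rest by Dixon's criterion on log2 intensity, and about 1 in 20 groups would by chance. Serpinf1 read 4700 in the TAB sample of day 28, where the other TAB samples lay between 6337 and 6710. F3 read 574 in the TAB sample of day 3, where the others lay between 803 and 914.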

How the results depend on the processing

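Under the 10 settings that kept all days, the 5 called members kept their direction and their call, and Plau and Plaur were not called. The log2 difference lay between -0.80 and -0.69 for F3, 0.73 and 0.88 for Plat, -0.36 and -0.20 for Plau, 1.77 and 2.57 for Serpina3n, 1.14 and 1.29 for Serpine2, 1.71 and 1.84 for Serpinf1. Plaur, whose fitted difference is no measured fold, had no value with the lowest tertile or probes not found on an array left out. No replicate block, that is, no pairing by day, gave 3598 genes called against 2749 and changed no member's call.

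Genes called numbered 4469 with 50 added, 677 with probes below 1 set to 1 and 4194 with trend and robust on. Of the called genes 1481 of 2749 were higher (53.9%), against 1782 of 2637 with median scaling only (67.6%) and 1871 of 2821 with normalization within each operation (66.3%). The early against late test called 10 genes with 50 added, 7 with the lowest tertile left out, 16 with only probes found on all arrays (chosen after seeing the data) and 34 with trend and robust on, against 0. DE calls over the 5 days numbered 4500, and 6427 with probes below 1 set to 1, 2258 with the lowest tertile left out, 2575 with only probes found on all arrays and 13173 at an absolute log2 ratio of 1. For the members the 11 became 5 with probes below 1 set to 1 and 17 at an absolute log2 ratio of 1. The cause of these shifts was not tested.

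With each day left out in turn the genes called ranged from 22 to 2753 and the members called from 1 to 5. The log2 difference ranged from -0.84 to -0.74 for F3, 0.70 to 0.85 for Plat, -0.49 to -0.28 for Plau, 2.28 to 2.93 for Serpina3n, 1.05 to 1.28 for Serpine2 and 1.68 to 1.80 for Serpinf1. F3, Plat, Serpina3n and Serpine2 lost their call without day 3, 5 or 7, with adjusted p up to 0.0802 in limma. The early minus late difference changed sign for F3 (-0.18 to 0.21) and Serpine2 (-0.43 to 0.48), neither of them called, and ranged from 0.07 to 0.45 for Plat, 0.29 to 0.62 for Plau, 0.13 to 1.98 for Serpina3n and 0.05 to 0.37 for Serpinf1. Plaur, F2rl3, Il6, Saa3 and Tagln were found on no sham array, so no exact fold is given for them. Plau, the sham values of Serpina3n and its TAB values of days 3, 14 and 28 lay close to background.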
